A study of Homo sapiens with 6 samples.

Results

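The genes described here are those of protein folding in the endoplasmic reticulum (ER) and of the unfolded protein response, followed in a breast cancer line treated with a CDK4/6 inhibitor. They were chosen as a list of 42 names: the sensors and ER-membrane transcription factors of the response, the chaperones, the enzymes of disulfide bond formation, the machinery of ER-associated degradation and the translocon. VIMP is an older symbol of SELENOS, another name in the list, so the names stand for 41 genes among the 60656 rows of the count table. Each of the 41 matched exactly 1 row by its Ensembl identifier.

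RNA came from parental ZR-75-1 cells, an oestrogen receptor-positive human breast cancer line, given vehicle (DMSO) or 500 nM abemaciclib, an inhibitor of CDK4 and CDK6, for 4 days. Each group had 3 libraries, described in the study as independent biological replicates. All were of 1 cell line without a genetic change made by the study. The RB1 knockout libraries of the same design were not analysed here. Library totals were 3317860 to 4013156 counts, and levels are given as CPM, the count of a gene scaled to the same total in each library. A count of 0 is compatible with at most 3 counts, or 0.748 to 0.904 CPM depending on the library, for counting error only. All 8 luminal epithelial markers were detected, at a summed level of 7478, 7496 and 7935 CPM with DMSO and 9512, 9366 and 8520 CPM with abemaciclib. The luminal sum was thus higher in all treated libraries. Much of it was KRT19, with means of 3131 CPM with DMSO and 4280 CPM with abemaciclib, and the median log2 fold change of the 8 markers was 0.12. Of the markers, 2 (ESR1 and KRT19) were called higher and 1 (KRT18) lower, and the part of this in the results was not tested. The basal markers KRT5, KRT14 and TP63 were at 0 in every library, as were PTPRC, CD3E, PECAM1 and 5 other markers of the 12 for stromal, endothelial and immune cells. KRT17, the remaining basal marker, was at 1.45, 0 and 1.51 CPM with DMSO and at 0 in every abemaciclib library. The summed level of those 12 was 11.6 to 16.1 CPM with DMSO and 10.1 to 15.9 CPM with abemaciclib, nearly all of it COL1A1. The share of counts on mitochondrial genes overlapped between the groups, at 15.6% to 18.3%.

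Secreted and membrane proteins enter the ER through the Sec61 translocon, fold there with the help of chaperones and of enzymes that form disulfide bonds, and are pulled back to the cytosol for degradation when folding fails. Unfolded protein in the ER is sensed by IRE1α (gene ERN1), ATF6 and PERK (gene EIF2AK3). ATF6 is cut in the Golgi to release a transcription factor, IRE1α splices XBP1 mRNA, and PERK phosphorylates eIF2α and so favours translation of ATF4. The 3′ libraries read the end of a polyadenylated transcript, with about 1 read per transcript whatever its length, so CPM needs no scaling by length. Genes whose 3′ end is shared with another gene on the same strand may lose reads, which limits comparisons between genes. These libraries do not show the splicing of XBP1 or the cleavage of ATF6.

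With abemaciclib, ER folding genes rose by small amounts and in large number. Of the 41 genes, 37 had enough counts to be tested, of which 20 (54.1%) were higher with abemaciclib and 1 (2.703%), CREB3L4, was lower, by the quasi-likelihood test of edgeR at an adjusted P under 0.05. Over all 10863 genes tested, 12.5% were higher and 13.3% lower. Another 16 members did not pass the test. The median log2 fold change of the 37 was 0.41, against −0.0018 over all genes tested, and 34 of the 37 fitted changes were above 0. In 21 members the lowest treated library exceeded the highest control, and in 1 the order was the opposite; over all genes tested these shares were 19.1% and 20.1%. The called rises ran from 1.19-fold for PDIA3 to 1.77-fold for SEL1L.

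The members' summed level was 5594, 5724 and 5787 CPM in the DMSO libraries and 7566, 7482 and 7091 CPM in the abemaciclib libraries. All 3 abemaciclib libraries were therefore above all 3 DMSO libraries, with the lowest sum of the treated group in replicate 3. The median deviation of the 37 members from the mean of DMSO, on the log2 scale, was 0.49, 0.44 and 0.36 in abemaciclib replicates 1, 2 and 3. Abemaciclib replicate 3 was the lowest library of its group for 10 of the 20 members called higher, replicate 1 for 4 and replicate 2 for 6. In bulk RNA, fewer cells of a type and less RNA per cell cannot be told apart, and the same holds for more.

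Members with and without a call differed in level. The 20 members called higher had DMSO means of 46.0 to 959 CPM and standard errors of the log2 fold change of 0.08 to 0.15. The 16 that were not called had DMSO means of 4.26 to 79.2 CPM and standard errors of 0.13 to 0.48, so that several fitted changes as large as the called ones did not pass. At an unadjusted P under 0.05, 23 members were higher and 1 was lower.

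**Figure D1:**
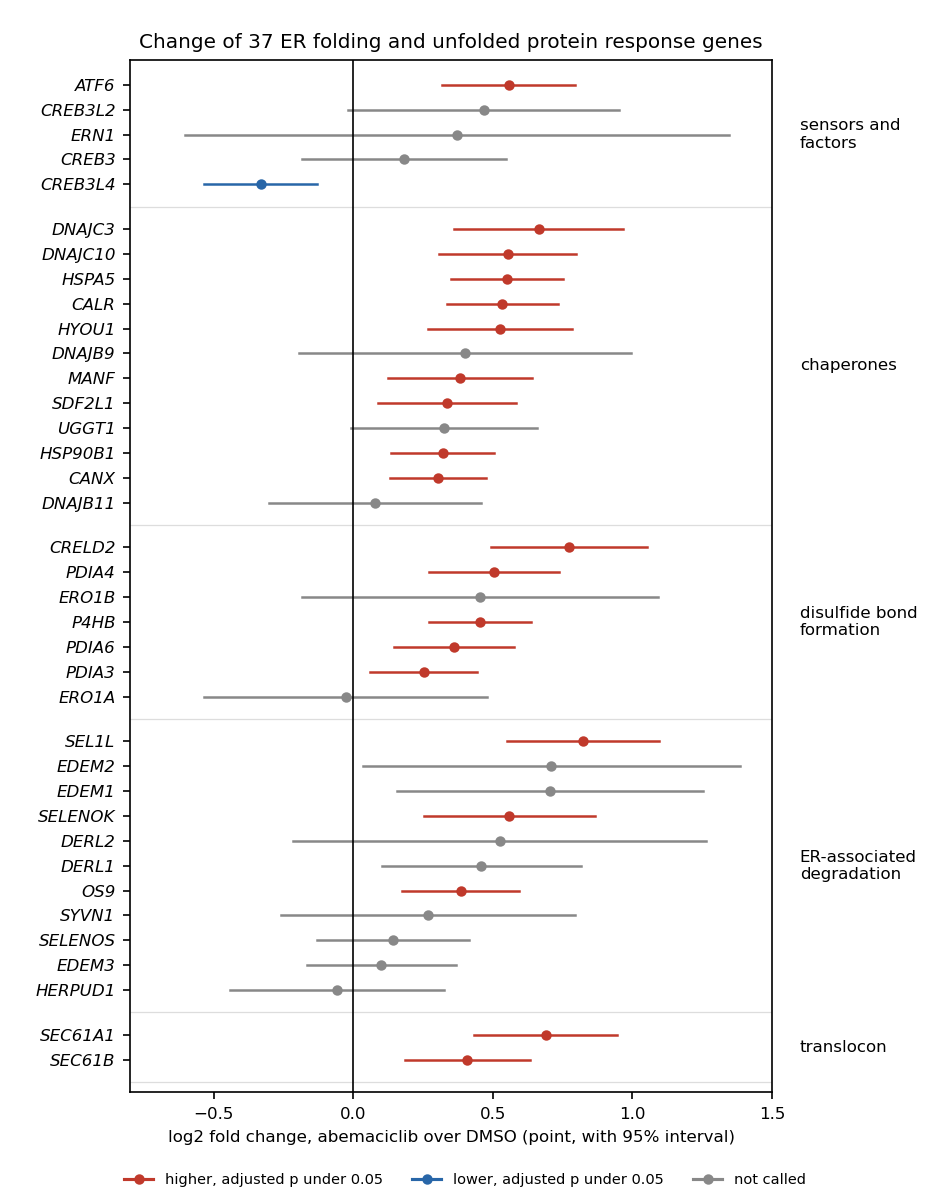
Log2 fold change, abemaciclib over DMSO, of the 37 members tested, ordered by role and then by size; points are estimates of edgeR, lines 95% intervals, and colour gives the call at an adjusted P under 0.05. The 20 called rises lie between 0.25 and 0.82, CREB3L4 at −0.33 is the only call on the other side of 0, and the wide intervals are those of genes with few counts.

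Chaperone genes of the ER are known for a shared promoter element, the ER stress response element (ERSE), CCAAT followed after 9 bases of any kind by CCACG, which was first described in promoters such as those of HSPA5, HSP90B1 and CALR. The promoters of the members were searched for it on both strands. A window of 250 bases before to 50 after each start was available for 38 of the 41 members, from RefSeq on GRCh38.p14; DERL1, DERL3 and PDIA3 had no entry. The element was present in 7 of the 38 members (18.4%), against 25 of the 27305 genes of the promoter table (0.092%). It was present in 14 of the 8589 genes tested that had an entry (0.163%). Without the members, it was present in 7 of 8554 (0.082%). The list holds known genes of the response, among them those in which the element was first described. An excess was therefore built into the list, and no conclusion is drawn from it. Of the 7 members with the element, 6 were called higher and ERO1B was not called. Of the 38 members with a window, 19 were called higher, and most of these lacked the element. It was held by 6 of these 19 and by 1 of the 15 not called. A link between the element and the calls was not tested. HSP90B1 held the element at 2 places. The fragments are shown 5′ to 3′ on the strand of the gene, with the matched bases in capitals and up to 20 bases on either side, so that both ends of the element and the spacer between them can be compared.
HSPA5, chr9:125241371-125241429, minus strand: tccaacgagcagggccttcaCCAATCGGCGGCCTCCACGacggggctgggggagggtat
HSP90B1, chr12:103930196-103930254, plus strand: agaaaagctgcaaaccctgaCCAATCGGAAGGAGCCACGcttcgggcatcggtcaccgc
HSP90B1, chr12:103930301-103930359, plus strand: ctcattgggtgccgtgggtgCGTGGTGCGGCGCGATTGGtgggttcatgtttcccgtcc
CALR, chr19:12938364-12938422, plus strand: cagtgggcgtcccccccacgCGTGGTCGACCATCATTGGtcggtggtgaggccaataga
CANX, chr5:179698758-179698816, plus strand: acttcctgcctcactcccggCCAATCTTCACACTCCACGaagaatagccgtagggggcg
CRELD2, chr22:49918534-49918592, plus strand: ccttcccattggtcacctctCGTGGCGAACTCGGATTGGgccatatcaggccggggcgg
PDIA6, chr2:10812833-10812891, minus strand: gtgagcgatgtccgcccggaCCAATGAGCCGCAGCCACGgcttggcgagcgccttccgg
ERO1B, chr1:236282163-236282208, minus strand: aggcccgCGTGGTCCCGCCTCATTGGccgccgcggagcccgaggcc

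In HSPA5 the match began at −66 from the start, in CRELD2 at −80, in PDIA6 at −86, in CANX at −151 and in CALR at −225. The matches of HSP90B1 began at −194 and −89, and the one of ERO1B at −243. Those of CALR, CRELD2, ERO1B and the second one of HSP90B1 read on the opposite strand. A second element, ERSE-II, with ATTGG followed after 1 base of any kind by CCACG, was found in HYOU1, at −185 and −79, in SDF2L1 at −188 and in HERPUD1 at −117. These are 3 of the 38 members (7.895%), against 0.07% of the genes of the table. HYOU1 and SDF2L1 were called higher and HERPUD1 was not. The fragments are shown because the same letters stood in front of genes with and without a called change.
HYOU1, chr11:119057360-119057410, minus strand: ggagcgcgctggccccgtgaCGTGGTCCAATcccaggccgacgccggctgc
HYOU1, chr11:119057254-119057304, minus strand: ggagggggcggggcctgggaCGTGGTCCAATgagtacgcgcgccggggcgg
SDF2L1, chr22:21642094-21642144, plus strand: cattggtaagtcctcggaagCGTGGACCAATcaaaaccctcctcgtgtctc
HERPUD1, chr16:56932005-56932055, plus strand: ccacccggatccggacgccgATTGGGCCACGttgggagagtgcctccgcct

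The core of the unfolded protein response element, searched as TGACGTGG, was found in DNAJC10, HYOU1 and TXNDC5, again 7.895% of the members, against 0.927% of the genes of the table. In HYOU1 it overlapped the ERSE-II at −185. The fragment of DNAJC10, a member called higher that held neither of the other elements, has the core at −125 on the opposite strand.
DNAJC10, chr2:182716112-182716159, plus strand: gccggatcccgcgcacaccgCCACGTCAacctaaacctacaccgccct

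These matches describe letters in the windows and do not show binding. For each element the shares are descriptive only, because the list was made of known genes of the response. The absence of a match in the other members covers only these letters and these windows.

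Of the 12 chaperones and co-chaperones, all were tested, 9 were higher and none lower, with a median log2 fold change of 0.39 and all 12 fitted changes above 0. HSPA5 (BiP), the Hsp70 of the ER lumen and the textbook marker of ER stress, was at 368, 400 and 314 CPM with DMSO and at 517, 537 and 531 CPM with abemaciclib. The groups did not overlap, and the treated libraries were closer to each other than the controls (SD 10.4 against 43.6 CPM). This was a rise of 1.46-fold, with a log2 fold change of 0.55 ± 0.10 (SE, n = 3 per group) and an edgeR adjusted P of 8.54e-05.

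HSP90B1 (GRP94), the Hsp90 of the ER, was at 419, 439 and 442 CPM with DMSO and at 520, 561 and 542 CPM with abemaciclib. Its rise was smaller, at 1.25-fold (log2 fold change 0.32, 95% interval 0.14 to 0.50, edgeR adjusted P = 0.00863), and without DMSO replicate 1 the adjusted P was 0.060. HYOU1 (GRP170), which serves BiP as a nucleotide exchange factor, had 70.5, 84.4 and 66.9 CPM with DMSO and 106, 112 and 101 CPM with abemaciclib. The lowest treated library was above the highest control, and the fold was 1.44 (adjusted P = 0.00236).

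The J proteins deliver clients to BiP. DNAJC3 (p58IPK) was at 53.7, 37.7 and 46.6 CPM with DMSO and at 72.0, 73.0 and 73.8 CPM with abemaciclib, the largest rise among the chaperones (log2 fold change 0.66 ± 0.15, adjusted P = 0.00112). DNAJC10 (ERdj5), a J protein that also reduces disulfide bonds of proteins bound for degradation, had 134, 142 and 177 CPM with DMSO and 244, 235 and 185 CPM with abemaciclib. Abemaciclib replicate 3 was close to the highest control, and the fold was 1.47 (adjusted P = 0.000883).

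The other J proteins among the members did not pass the test, while DNAJC1, a J protein outside the list, was called lower. DNAJB9 (ERdj4), which represses IRE1α, had 9.57, 11.9 and 8.78 CPM with DMSO and 13.0, 15.8 and 11.1 CPM with abemaciclib. The groups overlapped, and the interval of its log2 fold change ran from −0.19 to 1.00 (adjusted P = 0.344), so a rise as large as that of DNAJC3 lay within it. DNAJB11 (ERdj3), a soluble cofactor of BiP, had a log2 fold change of 0.078 with an interval of −0.30 to 0.46 (adjusted P = 0.811). The upper bound lies below the estimates for DNAJC3, HSPA5 and HYOU1, but the differences between genes were not tested.

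The lectin chaperones hold glycoproteins while they fold. CALR (calreticulin), their soluble member, was at 422, 452 and 474 CPM with DMSO and at 720, 656 and 577 CPM with abemaciclib (1.45-fold, adjusted P = 0.000107). Every treated library was above every control, with a wide spread among the treated (SD 71.4 CPM, n = 3). CANX (calnexin), the membrane-bound member and the most abundant gene of the list, was at 989, 941 and 947 CPM with DMSO and at 1188, 1162 and 1200 CPM with abemaciclib. The gap between the groups was larger than the spread within either of them; the fold was 1.23 (adjusted P = 0.00808), and without DMSO replicate 2 the adjusted P was 0.061. UGGT1, which puts a glucose back on misfolded glycoproteins and so returns them to the lectins, had a log2 fold change of 0.32 (−0.01 to 0.66) and was not called (adjusted P = 0.150); abemaciclib replicate 3, at 45.4 CPM, lay within the DMSO range of 38.6 to 50.5 CPM, and without that library the adjusted P was 0.027.

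MANF, a small secreted protein of the ER that binds BiP, had 71.1, 84.4 and 91.8 CPM with DMSO and 117, 100 and 105 CPM with abemaciclib (1.30-fold, adjusted P = 0.0244). SDF2L1, a partner of the ERdj3 complex, was at 175, 209 and 235 CPM with DMSO and at 294, 277 and 210 CPM with abemaciclib, so that the groups overlapped through abemaciclib replicate 3 (1.26-fold, adjusted P = 0.0405). Both calls were close to the threshold. MANF was no longer called without DMSO replicate 1 (adjusted P = 0.169), DMSO replicate 2 (0.069) or abemaciclib replicate 1 (0.097). SDF2L1 was lost without any one of DMSO replicates 1 and 2 and abemaciclib replicates 1 and 2, with adjusted P values of 0.116 to 0.266, and with DESeq2 (adjusted P = 0.065).

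**Figure D2:**
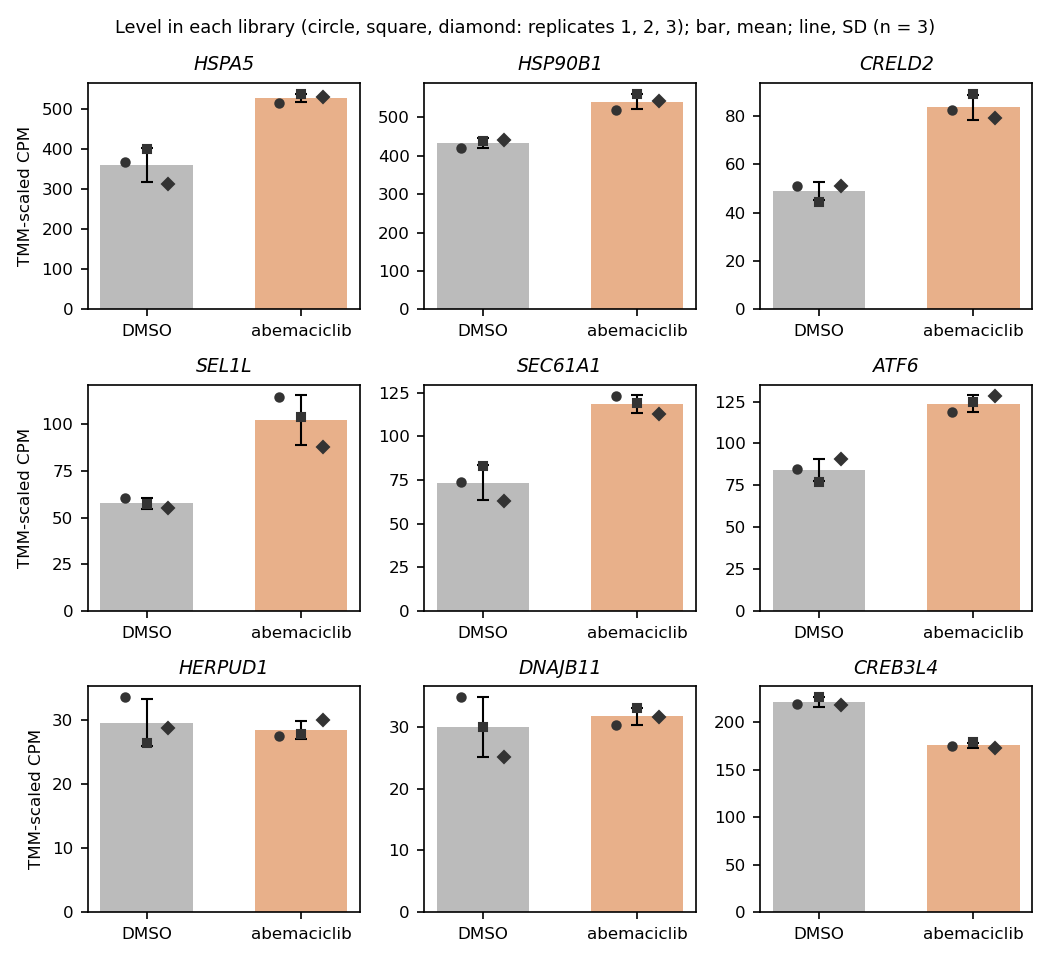
Level of 9 members in TMM-scaled CPM, each panel with its own axis from 0; bars are group means, lines SD (n = 3), and circle, square and diamond are replicates 1, 2 and 3. HSPA5, HSP90B1, CRELD2, SEL1L, SEC61A1 and ATF6 show treated libraries above all controls, HERPUD1 and DNAJB11 overlap, and CREB3L4 lies lower in all treated libraries.

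Of the 9 genes of disulfide bond formation, 7 were tested, of which 5 were higher and none lower, with a median log2 fold change of 0.45. CRELD2, an ER-resident protein with disulfide isomerase activity, was at 51.0, 44.6 and 50.9 CPM with DMSO and at 82.3, 89.1 and 78.9 CPM with abemaciclib. It was the second largest called rise of the list, at 1.71-fold (log2 fold change 0.77 ± 0.14, adjusted P = 7.84e-05), with no overlap between the groups.

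The protein disulfide isomerases form and rearrange disulfide bonds. P4HB (PDI), the founding member and also a subunit of prolyl 4-hydroxylase, was at 552, 530 and 549 CPM with DMSO and at 778, 700 and 754 CPM with abemaciclib (1.37-fold, adjusted P = 0.000291). PDIA4 (ERp72) had 107, 116 and 101 CPM with DMSO and 165, 156 and 138 CPM with abemaciclib (1.42-fold, adjusted P = 0.00126). In both genes the treated libraries were all above the controls.

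PDIA6 (P5) was at 168, 151 and 177 CPM with DMSO and at 225, 216 and 197 CPM with abemaciclib (1.28-fold, adjusted P = 0.0111; 0.096 without DMSO replicate 2). PDIA3 (ERp57), which works with calnexin and calreticulin, had 792, 842 and 910 CPM with DMSO and 1023, 1106 and 901 CPM with abemaciclib. This was the smallest called rise, at 1.19-fold (log2 fold change 0.25, 0.06 to 0.44, adjusted P = 0.0467), and abemaciclib replicate 3 lay below the highest DMSO library. The call was lost without DMSO replicate 1 (adjusted P = 0.224), DMSO replicate 2 (0.156), abemaciclib replicate 1 (0.090) or abemaciclib replicate 2 (0.234).

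The ERO1 oxidases reoxidize the isomerases, and neither passed the test. ERO1A ranged from 13.96 to 17.9 CPM with DMSO and from 13.6 to 17.8 CPM with abemaciclib (log2 fold change −0.028, −0.53 to 0.48, adjusted P = 0.953). ERO1B had 10.2, 12.8 and 7.88 CPM with DMSO and 20.3, 9.62 and 12.7 CPM with abemaciclib, where a single treated library stood above the other five (log2 fold change 0.45, −0.18 to 1.09, adjusted P = 0.315). CRELD1, the membrane-bound relative of CRELD2, and TXNDC5 (ERp46), another disulfide isomerase, had 0 counts in all 6 libraries. Of the last 500 exonic bases of CRELD1, 479 are shared on the same strand with a second annotated gene, and 495 of those of TXNDC5 with the readthrough gene BLOC1S5-TXNDC5. Over protein-coding genes with at least 400 of these bases so shared, 9.975% had 20 or more counts, against 58.34% of those with none. The zeros of CRELD1 and TXNDC5 were not read as low expression.

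Of the 12 genes of ER-associated degradation, 11 were tested, of which 3 were higher and none lower, with a median log2 fold change of 0.46. A smaller share was called than among the chaperones, of which 9 of 12 were, while the median was 0.46 against 0.39; 6 of the 11 had a DMSO mean of 31.8 CPM or less. SEL1L, the adaptor that stabilizes the ubiquitin ligase HRD1, was at 60.6, 57.0 and 55.1 CPM with DMSO and at 114, 104 and 87.8 CPM with abemaciclib. It was the largest called rise of the list, at 1.77-fold (log2 fold change 0.82 ± 0.13, adjusted P = 2.25e-05), and all treated libraries were far above the controls. SYVN1, which encodes HRD1 itself, was at 10.9 to 17.8 CPM with DMSO and 14.3 to 19.99 CPM with abemaciclib and was not called (log2 fold change 0.27, −0.26 to 0.79, adjusted P = 0.496).

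OS9, a lectin that brings glycoproteins to SEL1L, had 174, 205 and 204 CPM with DMSO and 256, 242 and 263 CPM with abemaciclib (1.31-fold, adjusted P = 0.00549; 0.066 without DMSO replicate 1). SELENOK, a small selenoprotein of the ER membrane that binds the derlins, had 58.3, 39.5 and 46.9 CPM with DMSO and 72.9, 70.1 and 70.5 CPM with abemaciclib (1.47-fold, adjusted P = 0.00599; 0.068 without DMSO replicate 2). The groups did not overlap in OS9 or in SELENOK.

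EDEM1, EDEM2 and EDEM3 trim mannose from misfolded glycoproteins and so mark them for degradation. EDEM1 was at 11.6, 8.32 and 10.9 CPM with DMSO and at 15.4, 17.0 and 17.8 CPM with abemaciclib, a log2 fold change of 0.71 (0.16 to 1.25) with an adjusted P of 0.0517, just outside the threshold. EDEM2, at 5.75 to 10.7 CPM and 10.9 to 13.3 CPM, had a similar estimate with a wider interval (0.71, 0.03 to 1.39, adjusted P = 0.118). EDEM3 was more abundant, at 66.3 to 75.7 CPM and 71.4 to 80.7 CPM, and its interval was narrow and lower (0.10, −0.17 to 0.37, adjusted P = 0.633). In EDEM1 and EDEM2 the groups did not overlap; in EDEM3 they did.

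The derlins are thought to form part of the channel through which proteins leave the ER. DERL1 was at 35.4, 28.2 and 31.8 CPM with DMSO and at 37.8, 43.2 and 49.99 CPM with abemaciclib, without overlap and just outside the threshold (log2 fold change 0.46, 0.10 to 0.81, adjusted P = 0.052). DERL2 was low, at 5.15 to 8.91 CPM and 8.65 to 10.3 CPM (0.52, −0.22 to 1.27, adjusted P = 0.319). DERL3 did not pass the filter on low counts, at 4.35, 0.891 and 1.51 CPM with DMSO and 0, 0 and 1.08 CPM with abemaciclib, where its highest DMSO value rests on 15 counts. SELENOS (VIMP), which ties the derlins to the p97 ATPase, had a log2 fold change of 0.14 (−0.13 to 0.41, adjusted P = 0.482) with overlapping groups.

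HERPUD1, a membrane protein of the HRD1 complex and a textbook target of the unfolded protein response, was at 33.6, 26.4 and 28.8 CPM with DMSO and at 27.5, 27.9 and 30.0 CPM with abemaciclib. The treated libraries lay inside the range of the controls, and the log2 fold change was −0.057 (−0.44 to 0.33, adjusted P = 0.864). Its promoter window held an ERSE-II, as those of HYOU1 and SDF2L1 did.

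Both members of the translocon were higher. SEC61A1, the subunit that forms the channel, was at 74.0, 83.2 and 63.0 CPM with DMSO and at 123, 119 and 113 CPM with abemaciclib (1.61-fold, log2 fold change 0.69 ± 0.13, adjusted P = 0.000115). SEC61B, its small partner, had 114, 134 and 125 CPM with DMSO and 175, 157 and 162 CPM with abemaciclib (1.33-fold, adjusted P = 0.0061; 0.058 without DMSO replicate 1). The groups did not overlap in either gene.

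Of the 6 sensors and ER-membrane transcription factors, 5 were tested, 1 was higher and 1 lower. These are 20% each, against 12.5% and 13.3% of all genes tested, and with so few genes nothing is read from the shares. ATF6, the sensor that becomes a transcription factor once cut, was at 85.0, 77.2 and 90.6 CPM with DMSO and at 119, 125 and 128 CPM with abemaciclib. The groups were apart by more than their spread, at 1.47-fold (log2 fold change 0.56 ± 0.12, adjusted P = 0.000637). ATF6B, its paralogue, held 53 counts over all 6 libraries and was not tested, at 2.12 to 2.90 CPM with DMSO and 1.35 to 3.95 CPM with abemaciclib. Of its last 500 exonic bases, 71 are shared on the same strand with TNXB, and an effect of this on its counts was not tested.

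ERN1 (IRE1α) was at 2.32, 6.54 and 3.94 CPM with DMSO and at 3.33, 7.40 and 5.67 CPM with abemaciclib. The groups overlapped almost wholly, and the interval of its log2 fold change, −0.60 to 1.35 (adjusted P = 0.628), was the widest of the list, so at this depth a change of the size seen for ATF6 could not have been detected. Among relatives of ATF6 that are cut in the same way, CREB3L4 was at 219, 227 and 218 CPM with DMSO and at 175, 179 and 173 CPM with abemaciclib. It was lower in all treated libraries, a log2 fold change of −0.33 (−0.54 to −0.13, adjusted P = 0.0131), and without DMSO replicate 2 the adjusted P was 0.065. Of its last 500 exonic bases, 91 lie opposite JTB, a more abundant gene that was not called (log2 fold change 0.092). CREB3L2 (0.47, −0.02 to 0.95, adjusted P = 0.155) and CREB3 (0.18, −0.19 to 0.55, adjusted P = 0.511) were not called. CREB3L1, a relative outside the list that was named after its values were seen, was at 191, 180 and 187 CPM with DMSO and at 266, 252 and 231 CPM with abemaciclib, a rise of 1.34-fold without overlap (log2 fold change 0.42, 0.22 to 0.63, adjusted P = 0.00204).

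**Figure D3:**
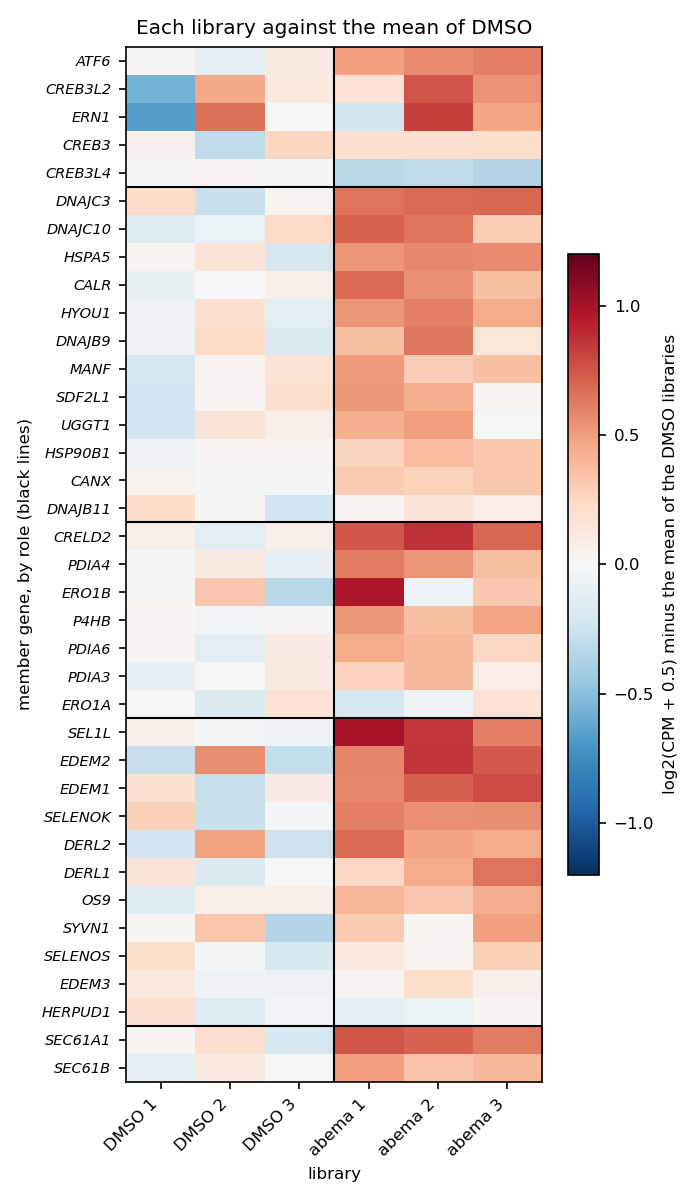
Each of the 37 members tested in each library, as log2(CPM + 0.5) minus the mean of the 3 DMSO libraries; rows are grouped by role in the order sensors and factors, chaperones, disulfide bond formation, ER-associated degradation and translocon. The treated columns are red in most rows, with a lower median in abemaciclib replicate 3 (0.36) than in replicates 1 (0.49) and 2 (0.44), and CREB3L4 is blue in all of them.

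Among the members, 10 are textbook targets of the ATF6 branch: HSPA5, HSP90B1, HYOU1, CALR, PDIA4, DNAJB11, SDF2L1, CRELD2, MANF and HERPUD1. All were tested, 8 were higher and DNAJB11 and HERPUD1 were not called, with a median log2 fold change of 0.44. The share called higher was 80%. It was 54.1% of all members tested, which include these 10, and 12.5% of all genes tested. These 10 were picked with earlier results of these data known, so their share is no test of the ATF6 branch. The activity of ATF6 was not tested. Over 12 alternative ways of processing the data, 11 of the 20 members called higher kept their call in every one, namely DNAJC3, DNAJC10, HSPA5, CALR, HYOU1, CRELD2, PDIA4, P4HB, SEL1L, ATF6 and SEC61A1, and the other 9 lost it in at least 1. Copies of a gene could have shared reads with 3 members: HSPA5 (9507 counts over all libraries) has 1 annotated pseudogene, with 10 counts, PDIA3 (19763 counts) has 2, with 53 counts, and SELENOK (1275 counts) has 3, with 1 count.

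Genes of the same pathway outside the list were 93, of which 85 were tested, 21 were higher and 7 lower, with a median log2 fold change of 0.23. In translocation and signal peptide cleavage, 7 of 16 tested were higher and none lower (median 0.32). In N-glycosylation and glycan trimming, 4 of 16 were higher and none lower (median 0.32). In the list of other oxidoreductases and prolyl isomerases, 5 of 17 were higher and 1 lower (median 0.29). The lower gene was DNAJC1, a J protein of neither class (log2 fold change −0.44, −0.64 to −0.23, edgeR adjusted P = 0.0014). SIL1, also of neither class, was among the 5 called higher. Among the other degradation genes 3 of 26 were higher and 3 lower (11.5% each, median 0.15), close to the shares over all genes tested (12.5% and 13.3%). Differences between these lists were not tested.

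A pair of these genes rose by more than 2-fold. FKBP10, a prolyl isomerase that acts on collagen, was at 27.3, 28.2 and 23.6 CPM with DMSO and at 56.3, 71.1 and 49.99 CPM with abemaciclib (2.24-fold, adjusted P = 6.8e-06). FAM8A1, a cofactor of HRD1 assembly, was at 6.96, 6.83 and 10.3 CPM with DMSO and at 20.9, 17.3 and 23.5 CPM with abemaciclib (2.55-fold, adjusted P = 0.000445). Both exceeded the largest rise among the members.

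The remaining sensors, proteases and genes of the PERK arm went in both directions, with 2 of 10 tested higher (XBP1 and CREB3L1) and 3 lower. These are 20% and 30%, against 12.5% and 13.3% of all genes tested. XBP1, whose mRNA IRE1α splices, was at 1580, 1535 and 1535 CPM with DMSO and at 2056, 1996 and 1988 CPM with abemaciclib (1.30-fold, adjusted P = 0.000866). XBP1 is also known as an oestrogen-responsive gene, and the counts do not separate its spliced from its unspliced form. EIF2AK3 (PERK) was low, at 6.36 to 17.1 CPM and 11.8 to 15.3 CPM, and was not called (log2 fold change 0.31, −0.33 to 0.95, adjusted P = 0.516).

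ATF4, DDIT3 and TRIB3, which lie downstream of PERK, fell. ATF4 was at 169, 135 and 165 CPM with DMSO and at 52.9, 46.6 and 57.6 CPM with abemaciclib, a log2 fold change of −1.58 ± 0.13 (adjusted P = 1.03e-10). DDIT3 (CHOP), a target of ATF4, was at 11.3, 10.1 and 15.1 CPM and at 5.14, 1.48 and 1.35 CPM (log2 fold change −2.22 ± 0.45, adjusted P = 0.000426). TRIB3, a target of both, was at 63.8, 58.2 and 66.6 CPM and at 18.8, 23.7 and 20.8 CPM (−1.57 ± 0.17, adjusted P = 2.74e-08). In all 3 genes every treated library was below every control, and each fall was larger in size than any change among the 37 members. PPP1R15A and PPP1R15B, of the same arm, did not pass the test of edgeR. Their log2 fold changes were 0.078 (−0.67 to 0.82, adjusted P = 0.910) and −0.020 (−0.27 to 0.23, adjusted P = 0.932). ATF4 is also known to be governed by amino acid supply and other stresses that do not involve the ER.

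**Figure D4:**
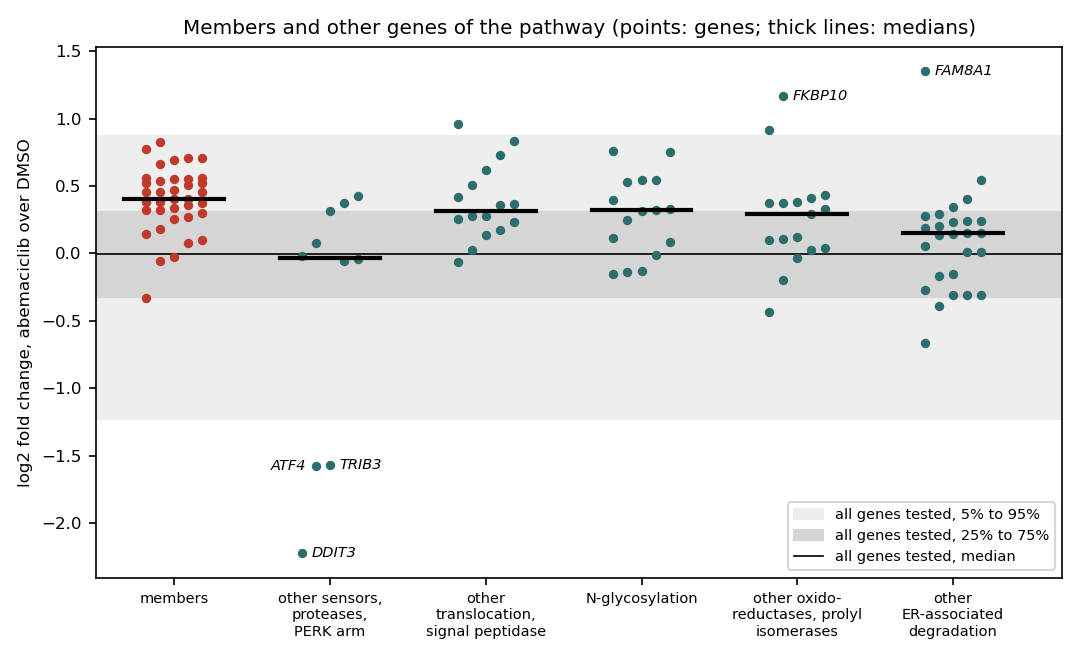
Log2 fold change, abemaciclib over DMSO, of each gene tested, for the 37 members and 5 lists of other ER pathway genes; points are genes, thick lines list medians, and grey bands hold the middle 50% and 90% of all genes tested. The members' median is 0.41 and that of all genes tested −0.0018, and the single genes ATF4, TRIB3 and DDIT3 lie below the lower 5% of genes (−1.23).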

How the data were processed

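Counts of 3′ mRNA reads in 6 libraries of ZR-75-1 cells, 3 per group, were analysed. The authors trimmed the reads (BBDuk), aligned them to hg38 with STAR 2.7.5b and counted them per gene with featureCounts 2.0.1 with GENCODE gene models, and what they deposited is the raw count of each gene and library, not normalized. No molecular identifiers are described, so PCR copies may be counted. The strand setting is not given in the sources used here. Protein-coding genes with at least 400 of their last 500 exonic bases covered by another gene held 20 or more counts in 73.04% when that gene lay on the opposite strand only, and in 9.975% when on the same strand only.

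Groups came from the labels. In R 4.3.3, edgeR 4.0.16 was run with filterByExpr, TMM, glmQLFit and glmQLFTest over 10863 genes, with Benjamini–Hochberg adjustment over all of them and a threshold of 0.05; the biological coefficient of variation was 13.2%. CPM are scaled by TMM. The study used DESeq2 for its own tests; DESeq2 1.42.0 is an alternative here. Alternatives were the test of DESeq2, edgeR with the size factors of DESeq2, scaling by total counts alone, testing without a filter, a minimum of 10 counts per library, a replicate block and the omission of each library. The test was checked on simulated data. Replicates of a group differed by more than sampling noise, and none was counted as a duplicate.

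The members and lists were chosen with earlier results of these data known, so no test over a list is given. Every member is named, with all library values for those past the threshold and for HSPA5, HSP90B1, DNAJB9, HERPUD1, ERN1, ATF6 and SEL1L; values of some others were added after they were seen. Pathway genes outside the list are named where they passed the threshold and changed by 1 or more on the log2 scale, with EIF2AK3, XBP1, ATF4 and DDIT3 in any case. CREB3L1, DNAJC1, SIL1, PPP1R15A and PPP1R15B were named after their values were seen. Gene symbols and gene models are from a later GENCODE release on GRCh38, and promoters from RefSeq on GRCh38.p14. Symbols were matched for 60401 of 60656 rows.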

Additional observations from a re-analysis of the deposited data

How the results depend on the processing

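The number of members called higher was 20, 19 with DESeq2, 22 with its size factors in edgeR (EDEM1 and DERL1 gained), 18 with total counts as the only scaling, 20 with no filter and 19 with a minimum of 10 counts per library. Leaving out 1 library gave 14 (without DMSO replicate 1) to 21 members higher (without abemaciclib replicate 3) and a median log2 fold change of 0.36 to 0.46. The number of members lower was 0 to 1; it was 0 without DMSO replicate 2. Over all genes, 981 to 1412 were higher and 1132 to 1529 lower. The replicate numbers did not pair the samples (correlations of same-numbered deviations −0.042, 0.007 and −0.088), and with a replicate block 17 members were higher, all among the 20, without MANF, PDIA3 and SDF2L1. Fitted changes crossed 0 for members that were never called: HERPUD1 ranged from −0.14 to 0.041 (above 0 without DMSO replicate 1), DNAJB11 from −0.034 (without DMSO replicate 3) to 0.20, and ERO1A from −0.14 to 0.066 (above 0 without DMSO replicate 3 and, at 0.055, without abemaciclib replicate 1). The median of all genes moved by less than 0.02 on the log2 scale, an alternative chosen after seeing the data. The causes of these moves were not tested. At this depth ERN1, DERL2, ERO1B and DNAJB9 had intervals too wide to detect changes of the size seen in abundant members. The interval of EDEM2 was also wide but lay above 0 (0.03 to 1.39). EDEM2 was called higher without DMSO replicate 2 (log2 fold change 1.07, edgeR adjusted P = 0.048).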
